A study of Mus musculus with 17 samples.

Results

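The mouse microRNAs (miRNAs) mmu-miR-122-5p, mmu-miR-148a-3p and mmu-miR-33-5p, written below without the mouse prefix, are RNAs with known roles in lipid handling by the liver, and they were followed here in the blood serum of 17 mice. They were chosen by name from the rows of the deposited real-time PCR table, and 3 of its 357 miRNA assays are these members. The wild-type group was 3 healthy FVB/N mice. The tumor-free group was 7 mice that carry the Autotaxin transgene AT-ATX and had no tumors, and the tumor group was 7 AT-ATX mice with 1 or more spontaneous tumors. The labels name no treatment. The labels do not give the promoter of the transgene, the strain of the transgenic mice, the tumor site or the age, and 1 tumor mouse (replicate 5) has a question mark in its name. Each sample is named as 1 mouse, and replicate numbers only name the mice.

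Autotaxin, an enzyme found outside cells, produces lysophosphatidic acid, a lipid that acts as a signal. A miRNA is a short RNA that lowers the output of messenger RNAs which pair with its seed, bases 2 to 8. miR-122-5p is the dominant miRNA of hepatocytes, where it sustains cholesterol and fatty acid synthesis, and its release into blood is used as a sign of liver injury. miR-148a-3p is abundant in liver and targets the LDL receptor and the cholesterol exporter ABCA1. miR-33-5p lies in an intron of Srebf2, the gene of the master activator of cholesterol synthesis, and also targets ABCA1. Serum holds what cells have released, so fewer cells of a type and less release per cell cannot be told apart.

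The mature sequences are shown because the assays read them and because the seed sets which miRNAs share targets. Of the 3 members, 2 were matched in the RefSeq miRNA table (GRCm38.p6). Seeds are in capitals, and the sequences run 5′ to 3′.
miR-33-5p: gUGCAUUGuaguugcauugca
miR-148a-3p: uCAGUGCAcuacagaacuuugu
miR-148b-3p: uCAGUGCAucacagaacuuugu
miR-152-3p: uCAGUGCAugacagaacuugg
The seed of miR-148a-3p, CAGUGCA, was shared by 3 of the 1679 mature miRNA names in that table, namely miR-148a-3p, miR-148b-3p and miR-152-3p, and all 3 have an assay on the panel. The seed of miR-33-5p was found in 1 name, its own. Counted from 1 at the 5′ end, with the base of miR-148a-3p first, miR-148b-3p differs by C9U and U10C. miR-152-3p differs by C9U, U10G and U20G and is 1 base shorter (21 against 22). Whether the PCR primers separate these near-identical RNAs was not tested.

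The hairpins of miR-33 and miR-148a are shown because both arms of each were measured, and the arms are in capitals. The miR-33 hairpin lies at chr15:82198122-82198190 on the plus strand, within the annotated span of Srebf2. The miR-148a hairpin lies at chr6:51269812-51269910 on the minus strand, within the span of the predicted gene Gm38821.
Mir33: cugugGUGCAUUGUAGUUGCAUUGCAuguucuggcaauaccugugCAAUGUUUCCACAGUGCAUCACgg
Mir148a: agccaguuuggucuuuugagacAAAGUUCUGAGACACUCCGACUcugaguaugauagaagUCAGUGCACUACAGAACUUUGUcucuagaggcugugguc

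The measured quantity was the quantification cycle (Ct), the PCR cycle at which an assay's signal crosses a threshold. More template gives a lower Ct, and at full efficiency a gap of 1 cycle is a factor of 2. For the level of a miRNA, its Ct was subtracted from the panel mean, the average over the 252 miRNA assays with a value in each of the 17 sera, which puts it on a log2 scale relative to the panel. Between 312 and 356 miRNA assays were detected per serum, and the panel mean Ct ran from 27.0 to 31.7. An index of red blood cell lysis, how far the Ct of miR-23a-3p exceeds that of the red blood cell miRNA miR-451a, ran from 2.21 to 7.82 cycles. It was 5.61 ± 2.07 (SD, n = 3) in wild-type, 4.38 ± 0.84 (n = 7) in tumor-free and 3.97 ± 1.97 (n = 7) in tumor mice. In 13 sera the values carry 2 decimal endings, taken here as 1 for each plate. In the other 4 (tumor-free replicates 4, 5 and 7 and tumor replicate 1) they carry 1. Tumor replicate 1 also had the fewest assays detected and the highest panel mean Ct. The number of mice limits the precision of every value below.

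Read as group means, miR-122-5p was lower in the sera of tumor mice than in the other groups, and miR-33-5p was higher in tumor-free transgenic mice than in wild-type mice. None of these differences passed. In limma (adjusted over 338 tested assays, threshold 0.05), 0 of the 3 members passed between tumor and tumor-free mice, where 1.48% of all assays did. Between tumor-free and wild-type mice 0 of 3 passed, against 0.592% of all, and between tumor and wild-type mice 0 of 3, against 8.28% of all. At an unadjusted p under 0.05 the counts were 2, 1 and 1 of 3, against 16.9%, 22.5% and 25.1% of all assays. The exact permutation test per assay gave 0 of 3 after adjustment in each comparison and 1, 1 and 0 before it. Over all 338 assays it gave 0 after adjustment in the first and second comparison, and 57 and 85 before it. The comparisons share groups: the tumor-free mice enter the first and second, and the wild-type mice enter both comparisons against wild type.

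**Figure D1:**
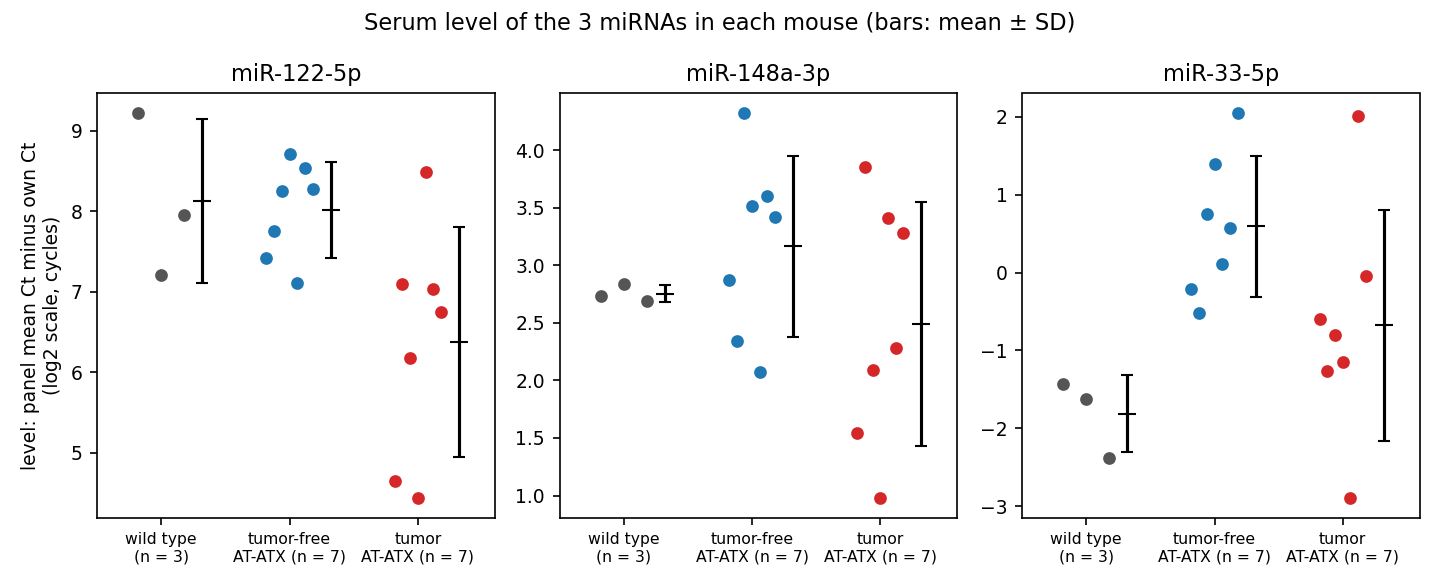
Level of miR-122-5p, miR-148a-3p and miR-33-5p in the serum of each mouse, as panel mean Ct minus own Ct on a log2 scale, with 1 point per mouse and the mean ± SD of each group beside the points; the sideways spread of points has no meaning. For miR-122-5p 6 of 7 tumor mice lie below all tumor-free mice, and for miR-33-5p all 7 tumor-free mice lie above the 3 wild-type mice.

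miR-122-5p was the member with the most template. Its Ct was 17.8, 20.9 and 22.0 in the wild-type mice. In tumor-free mice it ran from 20.5 to 23.2 with a median of 20.9, and in tumor mice from 20.2 to 27.0 with a median of 23.0. The Ct ranks set different assays side by side and so also depend on assay efficiency. miR-122-5p had the 3rd or 4th lowest Ct in each tumor-free serum. Its place was 3, 9 and 3 in wild-type sera and ran from 3 to 26 in tumor sera. Where that place was 9 or later, the lysis index was 7.82 cycles in wild-type replicate 2 (place 9) and 5.83 in tumor replicate 3 (place 11). It was 7.09 in tumor replicate 4 (place 26) and 2.21 in tumor replicate 1 (place 16). Relative to the panel the level of miR-122-5p was 9.22, 7.21 and 7.96 in wild-type mice. It ran from 7.11 to 8.71 (median 8.26) in tumor-free mice and from 4.44 to 8.48 (median 6.75) in tumor mice. Tumor replicates 1 and 4 were the lowest, at 4.65 and 4.44, and tumor replicate 5, at 8.48, was the only tumor mouse inside the tumor-free range.

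The group means of miR-122-5p were 8.13 ± 1.02 (SD, n = 3) in wild-type, 8.01 ± 0.60 (n = 7) in tumor-free and 6.38 ± 1.43 (n = 7) in tumor mice. Tumor minus tumor-free was -1.63 (SE 0.55, 95% interval -2.78 to -0.49, 3.10-fold lower, limma adjusted p = 0.123). The exact permutation p was 0.0128, and 0.144 after adjustment. By limma p it took place 20 of 338, and by difference it was the 14th lowest. Without tumor replicate 5, the mouse with the question mark, the difference was -1.98 and passed (limma adjusted p = 0.0368), as did tumor minus wild type (-2.10, adjusted p = 0.0444). With all mice, tumor minus wild type was -1.75 (SE 0.71, limma adjusted p = 0.136), and tumor-free minus wild type was -0.12 (SE 0.71, 95% interval -1.60 to 1.36, limma adjusted p = 0.909). The direction of the last turned with reference miRNAs (0.17), with quantile normalization (0.59), without wild-type replicate 1 (0.42) and without tumor-free replicate 5 (0.030).

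The tumor mice also spread more than the tumor-free mice in miR-122-5p, with an SD of 1.43 against 0.60, a ratio of 2.41. A wider spread in tumor mice was common on the panel: the median ratio over the 338 assays was 1.60, and 55 of them had a ratio at least as large as that of miR-122-5p. For miR-148a-3p and miR-33-5p the ratios were 1.35 and 1.64.

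**Figure D2:**
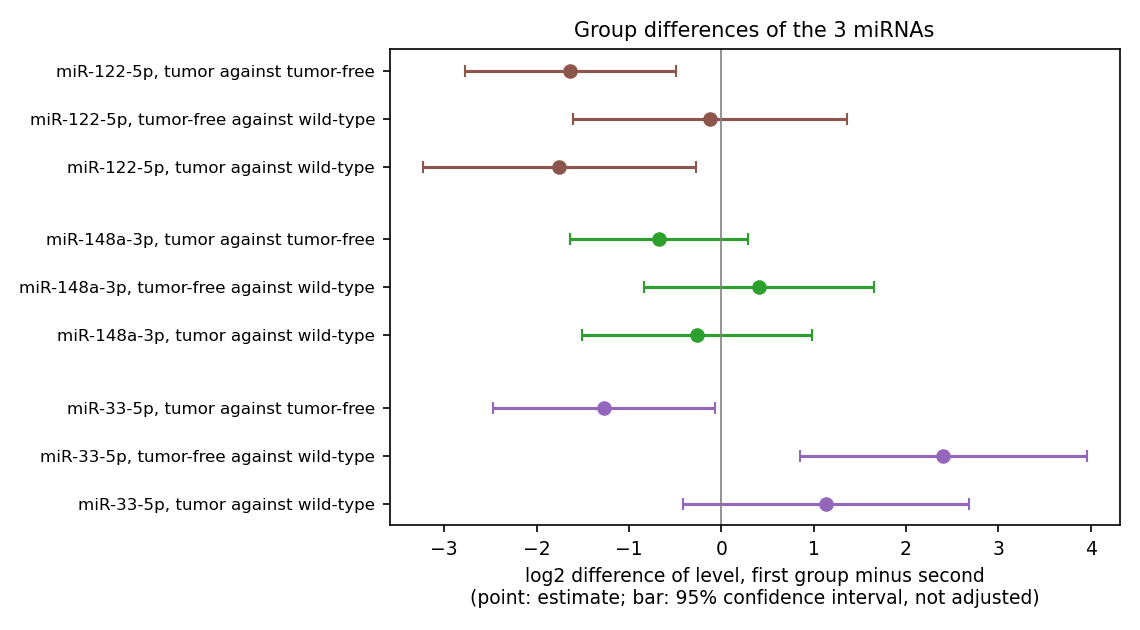
Differences of level between groups for the 3 miRNAs, first group minus second on a log2 scale, as limma estimates with 95% confidence intervals that are not adjusted for the number of assays. The intervals of miR-122-5p lie below 0 in both comparisons of tumor mice, that of miR-33-5p lies above 0 for tumor-free against wild-type mice, and all 3 of miR-148a-3p cross 0.

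The Ct of miR-148a-3p was 24.3, 25.3 and 27.3 in wild-type mice, ran from 24.4 to 28.2 (median 25.8) in tumor-free mice and from 24.7 to 30.1 (median 27.5) in tumor mice. Relative to the panel the 3 wild-type mice lay close together, though their Ct did not. The level was 2.73, 2.83 and 2.69 in the wild-type mice. It ran from 2.07 to 4.32 (median 3.42) in tumor-free mice and from 0.97 to 3.85 (median 2.29) in tumor mice. Both transgenic groups thus held mice above and below all wild-type mice: 5 above and 2 below among the tumor-free, 3 above and 4 below among the tumor mice. The means were 2.75 ± 0.073 (SD, n = 3), 3.16 ± 0.78 (n = 7) and 2.49 ± 1.06 (n = 7).

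The order of means for miR-148a-3p was tumor-free, wild-type, tumor, and neighbours in that order differed by less than the SE of their difference. Tumor minus tumor-free was -0.67 (SE 0.46, 95% interval -1.64 to 0.29, limma adjusted p = 0.475). Tumor-free minus wild type was 0.41 (SE 0.60, interval -0.83 to 1.65, limma adjusted p = 0.694), but -0.61 with raw Ct and -0.73 with spike-ins. Tumor minus wild type was -0.26 (SE 0.60, limma adjusted p = 0.827).

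The seed relatives of miR-148a-3p gave other values between tumor and tumor-free mice, and neither passed. miR-148b-3p stood at 2.06 ± 0.70 (SD, n = 7) in tumor and 1.501 ± 0.34 (n = 7) in tumor-free mice, a difference of 0.56 (SE 0.37, limma adjusted p = 0.472) with the opposite sign. miR-152-3p differed by -0.03 (SE 0.53, limma adjusted p = 0.975). Over the 17 mice the level of miR-148a-3p had a Pearson r of -0.31 with miR-148b-3p and of 0.43 with miR-152-3p. Raw Ct, which also follows the total RNA of a serum, gave 0.71 and 0.85. The other arm of the hairpin, miR-148a-5p, was far scarcer, with a Ct 8.19 ± 1.21 cycles (SD, n = 14) above that of miR-148a-3p, and it was not detected in 1 tumor-free and 2 tumor mice.

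miR-33-5p had the highest Ct of the members, and in the comparison of tumor-free with wild-type mice it had the largest difference of the 3. Its Ct was 28.4, 29.8 and 32.4 in wild-type mice, ran from 27.2 to 31.0 (median 28.3) in tumor-free mice and from 27.7 to 32.3 (median 31.4) in tumor mice. Its level was -1.43, -1.62 and -2.38 in wild-type mice. It ran from -0.52 to 2.05 (median 0.57) in tumor-free mice and from -2.90 to 2.02 (median -0.80) in tumor mice. The 7 tumor-free mice lay above all 3 wild-type mice, while the tumor mice spanned both groups: 6 of 7 lay above the wild-type mice, and replicate 5 lay below them. Groups without overlap were not rare in this comparison, where 12.7% of the 338 assays had none, 6.8% with the tumor-free mice higher. Against wild type the tumor mice had no overlap in 9.17% of assays, none of them a member.

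For miR-33-5p the means were -1.81 ± 0.50 (SD, n = 3) in wild-type, 0.59 ± 0.91 (n = 7) in tumor-free and -0.68 ± 1.48 (n = 7) in tumor mice. Tumor-free minus wild type was 2.40 (SE 0.74, 95% interval 0.85 to 3.96, 5.29-fold higher), at place 10 of 338 by p, but it did not pass (limma adjusted p = 0.132). Its exact permutation p was 0.00833, the smallest that 7 against 3 mice can give, and 0.0828 after adjustment. Tumor minus tumor-free was -1.27 (SE 0.58, interval -2.47 to -0.069, limma adjusted p = 0.265), and 5 of the 7 tumor values were lower than every tumor-free value. Tumor minus wild type was 1.13 (SE 0.74, interval -0.42 to 2.69, limma adjusted p = 0.351), but -0.25 with raw Ct and -0.14 with spike-ins.

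Scaling moved all assays together in comparisons with wild type, so the members were also read against the median assay. Between tumor-free and wild-type mice the median difference of all tested assays was 0.03 on the panel scale, -1.07 with raw Ct and -1.19 with spike-ins. Panel, raw Ct and spike-in scaling each shift all assays of a serum by 1 amount, so they leave the place of a member among the assays nearly as it is. Set against the median, miR-33-5p was 2.38 higher in tumor-free than in wild-type mice on the panel scale, and 2.48 higher with quantile normalization, which is not such a shift. In the tumor comparison miR-122-5p stood at -1.77 from the median on the panel scale and at -1.74 with quantile normalization. Against wild type the offset of miR-122-5p did move with quantile normalization, from -0.15 to 0.74 in tumor-free mice and from -1.94 to -1.08 in tumor mice. Without the 4 sera of 1 decimal ending the panel-scale differences were 1.96 (limma adjusted p = 0.316) for miR-33-5p (tumor-free minus wild type) and -1.33 (limma adjusted p = 0.593) for miR-122-5p (tumor minus tumor-free). Not set against the median, the difference of miR-33-5p between tumor-free and wild-type mice was 1.38 with raw Ct and 1.26 with spike-ins.

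The arms of the miR-33 hairpin gave unequal differences between wild-type and transgenic mice. miR-33-3p, the passenger arm, stood at -3.83 ± 0.50 (SD, n = 3) in wild-type, -3.95 ± 0.66 (n = 7) in tumor-free and -5.002 ± 1.06 (n = 6) in tumor mice, with 1 tumor mouse not detected. Its difference between tumor-free and wild-type mice was -0.11 (SE 0.57, limma adjusted p = 0.895), beside the 2.40 of miR-33-5p. Between tumor and tumor-free mice it was -1.06 (SE 0.46, limma adjusted p = 0.25), close to the -1.27 of miR-33-5p.

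Within each serum the Ct of miR-33-3p exceeded that of miR-33-5p by 2.51, 2.64 and 0.91 cycles in wild-type mice. The gap was 3.22 to 5.13 (median 4.95) in tumor-free mice and 3.08 to 5.66 (median 4.13, n = 6) in tumor mice, so that no transgenic mouse fell into the wild-type range. This contrast was singled out after the values were seen. Of the 62 hairpins with both arms tested, 16.1% had no overlap between tumor-free and wild-type mice and 8.06% had none between tumor and wild-type mice. The shift of miR-33 between tumor-free and wild-type mice, 2.52 cycles, was reached or exceeded in size by 4 of the 62 hairpins, itself included. With the decimal endings taken as plates, the arms of miR-33 were on different plates, as were those of 44 of the 62 hairpins. The part of the plates in the gap was not tested.

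The Ct differences between members in the same serum do not depend on any scaling. From miR-122-5p to miR-148a-3p the step in Ct was 5.38 ± 1.06 cycles (SD, n = 3) in wild-type, 4.85 ± 0.49 (n = 7) in tumor-free and 3.89 ± 0.77 (n = 7) in tumor mice. The mean step was thus smaller in tumor than in tumor-free mice, but the ranges of 3.11 to 5.07 and 3.93 to 5.41 cycles overlapped. A smaller step can mean less miR-122-5p or more miR-148a-3p. On the panel scale both means were lower in tumor than in tumor-free mice, by -1.63 and -0.67, and neither difference passed. The difference of the steps was not tested. From miR-148a-3p to miR-33-5p it was 4.56 ± 0.46, 2.57 ± 0.77 and 3.17 ± 2.01 cycles. The tumor-free range of 1.37 to 3.57 lay below the wild-type range of 4.16 to 5.07, whereas the tumor range of 0.27 to 6.31 covered both. Of 337 assays set against miR-148a-3p in this way, 3.86% had no overlap between tumor-free and wild-type mice. Against miR-122-5p, the tumor-free range of miR-33-5p, 6.23 to 8.27 cycles, also lay below that of wild type, 8.84 to 10.6, as 9.79% of assays did not overlap there.

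**Figure D3:**
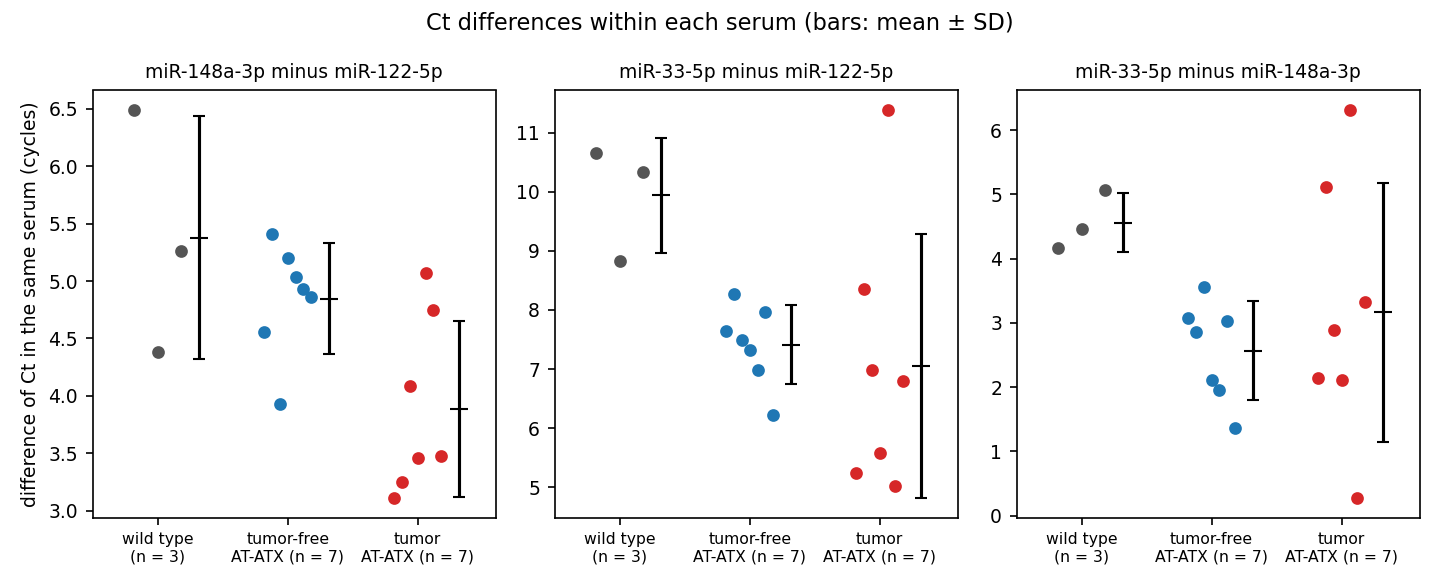
Ct differences in cycles between members measured in the same serum, with 1 point per mouse and the mean ± SD of each group beside the points; the sideways spread of points has no meaning. In the plots with miR-33-5p the 7 tumor-free mice lie below the 3 wild-type mice, and the tumor mice run from below the tumor-free mice to above the wild-type mice.

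The levels of miR-122-5p and miR-148a-3p varied together among the 17 mice, with r = 0.74 (Spearman rho = 0.62), and r = 0.75 with group means taken off. Within the 7 tumor-free mice r was 0.78 and within the 7 tumor mice 0.85. Without the 2 mice farthest from the median of miR-122-5p r over the others was 0.44, and those mice were tumor replicates 1 and 4. Raw Ct gave 0.92. Over the 17 mice miR-33-5p had r = 0.11 with miR-122-5p and 0.19 with miR-148a-3p. These were 0.67 and 0.59 within the tumor-free mice but -0.18 and -0.24 within the tumor mice, and raw Ct over all mice gave 0.59 and 0.62. The mouse with the highest miR-122-5p among tumor mice, replicate 5 (8.48), had the lowest miR-33-5p of all 17 (-2.90). All points share the panel mean used for scaling, and raw Ct shares the RNA yield of a serum.

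**Figure D4:**
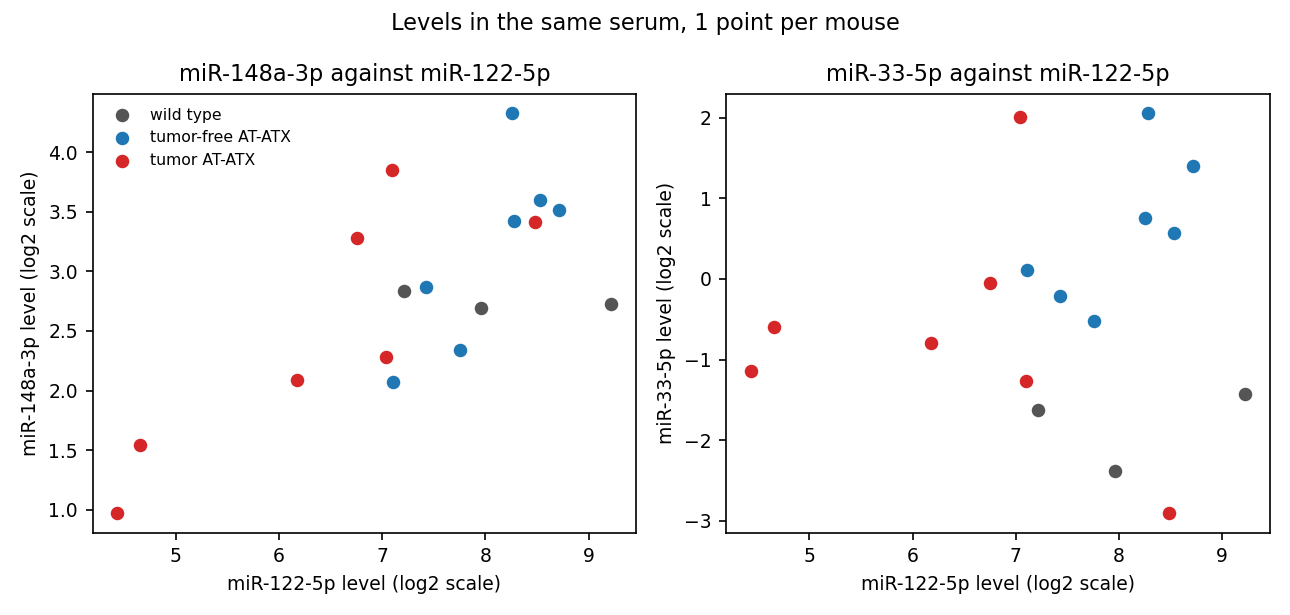
Levels of miR-148a-3p (left) and miR-33-5p (right) against that of miR-122-5p in the same serum, log2 scale, 1 point per mouse. The left plot rises from the tumor mice at 4.44 and 4.65 on the miR-122-5p axis (r = 0.74 over 17 mice), and the right plot has r = 0.11 over all mice.

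The members also went with the lysis index and the panel mean to different degrees. Over the 17 mice the lysis index had r = -0.14 with the level of miR-122-5p, -0.40 with miR-148a-3p and -0.38 with miR-33-5p. Within the 7 tumor-free mice these were -0.84, -0.89 and -0.73, and within the 7 tumor mice -0.23, -0.51 and -0.35. The panel mean Ct had r = -0.57, -0.47 and 0.07 with the levels of the 3 members in the same order. With the index as a covariate, tumor minus tumor-free was -1.75 for miR-122-5p (limma adjusted p = 0.0522), and tumor-free minus wild type was 2.08 for miR-33-5p (limma adjusted p = 0.162).

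The 5 assays most like each member were taken by Pearson r of the level over 17 mice, among the 251 other assays detected in all of them. For miR-122-5p they were miR-802-5p (0.84), miR-194-5p (0.82), miR-28a-5p (0.78), miR-148a-3p (0.74) and miR-455-5p (0.73). miR-802-5p and miR-194-5p are known from liver. For miR-148a-3p they were miR-365-3p (0.81), miR-99a-5p (0.81), miR-122-5p (0.74), miR-199b-5p (0.69) and miR-199a-5p (0.67). For miR-33-5p they were miR-1839-3p (0.77), the lymphocyte miRNA miR-150-5p (0.75), miR-709 (0.71), the rat assay miR-350 (0.69) and miR-339-5p (0.68). Neither miR-122-5p nor miR-148a-3p stood near miR-33-5p in that order, at places 95 and 80.

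Other miRNAs known from hepatocytes were described as a list of 11, of which 10 were on the panel and tested, miR-122-5p and miR-148a-3p among them. Between tumor and tumor-free mice 2 of 10 fell and 0 rose, while 1.18% of all 338 assays fell. Below 0 lay 8 of 10 differences, as did 150 of all 338, and the median was -0.81 against 0.14 over all assays. The 2 of the list that fell were miR-802-5p (-1.99, SE 0.37, limma adjusted p = 0.0105), which acts on insulin signaling in liver, and miR-192-3p (-1.86, SE 0.37, limma adjusted p = 0.0128). The count of 2 was 4 without tumor replicate 5, and 0 with raw Ct, spike-ins or reference miRNAs, without the 4 sera of 1 decimal ending, and by the exact test. At an unadjusted p under 0.05, limma and the exact test each counted 5 of 10, and each counted 57 of all 338 assays (16.9%). The largest difference above 0 was that of miR-193b-3p (0.76, limma adjusted p = 0.376). miR-802-5p spread less than miR-122-5p, and its 7 tumor values (-2.32 to -0.68) lay below all 7 tumor-free values (0.03 to 1.68), as was the case, in either direction, for 1.18% of all assays.

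Between tumor and wild-type mice 4 of the 10 fell and 0 rose: miR-802-5p (-2.26), miR-192-3p (-2.37), miR-192-5p (-1.57) and miR-194-5p (-2.56), with limma adjusted p from 0.00776 to 0.0199. Of these, miR-192-3p and miR-192-5p are arms of the same hairpin and so are not separate markers. Whether the others are separate from them and from each other was not tested. The count of 4 was 1 with reference miRNAs, with spike-ins or without wild-type replicate 3, 2 without wild-type replicate 1 or without the 4 sera of 1 decimal ending, and 0 by the exact test (6 at an unadjusted p under 0.05). At an unadjusted p under 0.05 limma counted 7 of 10, against 25.1% of all 338 assays. The median was -1.41 against 0.19 over all assays, of which 4.14% fell. Above 0 the largest difference was that of miR-193b-3p (1.47, limma adjusted p = 0.0884). Between tumor-free and wild-type mice 0 of 10 passed in limma (1 at an unadjusted p under 0.05) and 0 in the exact test (2 unadjusted). Over all assays 0.592% passed in limma, and the unadjusted shares were 22.5% in limma and 85 of 338 in the exact test. The median of the list was -0.20 against 0.03. The largest differences were those of miR-101a-3p (-1.32, limma adjusted p = 0.132) and miR-365-3p (0.92, limma adjusted p = 0.41).

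A second list held 32 miRNAs known to target genes of cholesterol or fatty acid handling, of which 28 were tested, the 3 members included. It showed no common direction. Between tumor and tumor-free mice 0 of 28 passed in limma (7 at an unadjusted p under 0.05) and 0 in the exact test (6 unadjusted), beside 1.48% of all assays in limma and 16.9% unadjusted in either test. Of the 28, 16 lay above and 12 below 0, beside 188 and 150 of all 338 assays. The median of the list was 0.22 against 0.14 over all assays. miR-122-5p had the largest difference below 0 and miR-10b-5p, which targets ABCA1, the largest above it (1.16, SE 0.41, limma adjusted p = 0.135). Between tumor-free and wild-type mice 0 of 28 passed in limma (5 at an unadjusted p under 0.05) and 0 in the exact test (6 unadjusted), beside 0.592% of all assays in limma and, unadjusted, 22.5% in limma and 85 of 338 in the exact test. Of the 28, 11 lay above and 17 below 0, beside 172 and 166 of all 338 assays, and the median was -0.26 against 0.03. miR-33-5p was the highest of these 28, and miR-144-3p, a red blood cell miRNA that also targets ABCA1, the lowest (-1.17, SE 0.84, limma adjusted p = 0.431).

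Between tumor and wild-type mice 2 of the 28 rose and 0 fell, beside 4.14% of all assays in each direction. These were miR-128-3p, which targets ABCA1 and the LDL receptor (2.20, SE 0.56, 4.58-fold, limma adjusted p = 0.0203), and miR-223-3p of neutrophils, which represses cholesterol synthesis genes (1.96, SE 0.56, 3.89-fold, limma adjusted p = 0.0333). The lowest was miR-30c-5p, which targets the lipoprotein assembly factor MTP (-1.84, SE 0.76, limma adjusted p = 0.141). The count of 2 that rose was 1 with quantile normalization or reference miRNAs and without tumor replicate 2 or wild-type replicate 1. It was 0 with raw Ct or spike-ins, without wild-type replicate 3 or the 4 sera of 1 decimal ending, and by the exact test (4 at an unadjusted p under 0.05). At an unadjusted p under 0.05 limma counted 9 of 28, against 25.1% of all 338 assays. The median was -0.13 against 0.19 over all assays.

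Markers of other sources were read beside these values. The mean level of the 4 red blood cell miRNAs tested ran from 7.55 to 9.77 in wild-type, 6.86 to 8.66 in tumor-free and 6.38 to 9.63 in tumor mice. Between tumor-free and wild-type mice, the comparison in which miR-33-5p differed by 2.40, all 4 had differences below 0, with a median of -1.02 against 0.03 over all assays. Of all 338 assays, 172 lay above and 166 below 0 there. In the same comparison all 6 muscle miRNAs tested had differences above 0, with a median of 1.95. Between tumor and wild-type mice all 6 were again above 0, as were 183 of all 338 assays, with a median of 1.73 against 0.19. None of these 10 red blood cell and muscle miRNAs passed in limma in any comparison. How far the miRNAs of 1 list vary together was not tested. The 3 muscle miRNAs detected in every mouse had a mean level of -1.78 to 2.53 in wild-type, -0.052 to 4.64 in tumor-free and -0.77 to 6.93 in tumor mice. The mean level of the 4 platelet miRNAs ran from 3.84 to 4.59, 3.94 to 4.69 and 3.60 to 5.36 in the same order of groups. Among them is miR-223-3p, also on the lipid list, which passed between tumor and wild-type mice (1.96, limma adjusted p = 0.0333). The 1 exocrine pancreas miRNA tested, miR-217-5p, was not detected in 1 mouse of each group, and its difference was -0.56 between tumor-free and wild-type mice and -0.01 between tumor and tumor-free mice. The part of these sources in the results was not tested.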

How the data were processed

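Serum total RNA from 17 mice was turned into cDNA and measured by SYBR Green PCR over 40 cycles on 2 miRNA panel plates, per the labels' protocols. The deposited values are Ct per assay and sample, not normalized by the authors per the file's name. The threshold, plate calibration and detection limit are not given in the sources used here. Of 365 assays, 8 are controls. The 40 rat-named assays were kept, and a blank cell counted as no detection (highest Ct 37.0). The last decimals split the assays into sets of 245 and 120, taken as the plates.

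Computed here were levels, on a log2 scale, from the deposited Ct. Assays detected in at least 2 wild-type, 5 tumor-free and 5 tumor mice were tested (338, with 160 missing values, left out of each assay's fit) in 1 limma fit over all groups (limma 3.58.1, R 4.3.3, two-sided, Benjamini-Hochberg). The fit was also run on simulated data with independent assays and the same spread in every group. The sera differ in both respects, so that run does not vouch for the tests here. Exact permutation tests were two-sided (Python 3.11.15, numpy 2.4.6). p-values measure the spread between mice. No 2 samples held the same values (smallest SD of a difference 0.841).

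The members, the lists and the tests were chosen with earlier results of these data known. The text names the members, their other arms and seed relatives, the 5 assays most like each, and, of each list, those that passed and the largest difference each way. Alternatives covered scaling, missing values, detection limit, filter, variance model, test, lysis index, animal label number, decimal endings and leaving out mice. The same-plate scaling was chosen after seeing the data.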

Additional observations from a re-analysis of the deposited data

Results flagged for a closer look

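Over 50 groups of values of the members, their other arms, their seed relatives and the sample measures, each tested for a mouse far from its group, 2 stood out, and chance gives about 1 in 20. The Ct of miR-148a-5p was 32.3 in tumor replicate 7, lower than in the other 4 tumor mice where it was detected. The Ct of miR-148b-3p was 30.5 in tumor replicate 1, the serum with the highest panel mean Ct (31.7). No value of miR-122-5p, miR-148a-3p or miR-33-5p stood out in this way.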

How the results depend on the processing

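The direction of the 3 differences between tumor and tumor-free mice held under every scaling, filter, model and left-out mouse tried, from -2.01 to -1.31 for miR-122-5p, -1.05 to -0.42 for miR-148a-3p and -1.72 to -0.84 for miR-33-5p. Leaving out 1 mouse at a time gave miR-122-5p -1.98 to -1.31, past the threshold only without tumor replicate 5, and -2.21 to -1.21 for tumor against wild type, likewise. Tumor-free minus wild type stayed above 0 for miR-33-5p (1.26 to 2.70), and none of these settings brought it past the threshold. For miR-122-5p it was 0.17 with reference miRNAs, 0.59 with quantile normalization and -0.58 to 0.42 over left-out mice, of which 0.42 was without wild-type replicate 1 and 0.030 without tumor-free replicate 5. For miR-148a-3p it was -0.61 with raw Ct and -0.73 with spike-ins. For miR-33-5p, tumor minus wild type was -0.25 with raw Ct and -0.14 with spike-ins. The correlation of miR-122-5p with miR-33-5p was -0.077 without the sera of 1 decimal ending. The 5 assays past the threshold between tumor and tumor-free mice became 0 with reference miRNAs, raw Ct, spike-ins, without sera of 1 ending or by the exact test (44, 17, 14, 29 and 57 at an unadjusted p under 0.05), 13 with the lysis index and 2 to 10 without 1 mouse. The 2 between tumor-free and wild-type mice became 0 with raw Ct, spike-ins or the exact test, 1 with median or reference scaling, a trended robust variance or without sera of 1 ending, 4 with missing values at Ct 37, 5 with the index, 7 with same-plate scaling and 1 to 11 without 1 mouse. The 28 between tumor and wild-type mice became 13 with reference miRNAs, 15 with raw Ct, 8 with spike-ins, 14 without sera of 1 ending, 0 by the exact test and 5 to 44 without 1 mouse. Causes were not tested. Some animal label numbers stand on both tumor-free and tumor mice, and the labels do not explain them. With that number as a random block (correlation 0.0703), tumor minus tumor-free was -1.66 for miR-122-5p (limma adjusted p = 0.125) and -1.25 for miR-33-5p (adjusted p = 0.273), and no member changed its side of the threshold. With 3 wild-type mice, differences from wild type are the least precise.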
